A study of Mus musculus with 9 samples.

Results

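The genes described here encode the machinery that carries proteins into mitochondria, measured in mouse hindlimb skeletal muscle during the first postnatal weeks. Members were chosen by name: genes whose symbol is Timm or Tomm followed by a number, together with Pam16, Dnajc19, Grpel1, Grpel2, Hspa9, Hspd1, Hspe1, Samm50, Pmpca and Pmpcb. The rule itself uses no measured value, though it was written with earlier results of these data known. The rule names 35 genes on the array, and 32 of them, among 22180 genes in all, have a probe set assigned to a single gene symbol. Dnajc19, Tomm5 and Tomm6 have only probe sets that carry several symbols, and no value is given for them.

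RNA was taken at P2, P7 and P14 (postnatal days 2, 7 and 14) from hindlimb muscles of mice whose strain the labels give as mixed. There were 3 arrays at each age, described as biological replicates, and no genotype or treatment separates the groups. The labels do not say if each came from 1 animal or from pooled animals. Values are log2 intensities, so a difference of 1 is a 2-fold change, and a level compares arrays for 1 gene, not genes with each other.

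Most mitochondrial proteins are encoded in the nucleus, made in the cytosol and carried inward. Precursors bind receptors of the translocase of the outer membrane and pass through its channel. From there small Tim chaperones escort hydrophobic proteins across the intermembrane space, the sorting and assembly complex inserts barrel proteins into the outer membrane, and the inner membrane translocases with their motor draw precursors with a presequence into the matrix, where the presequence is removed and the protein folds. Postnatal skeletal muscle builds up its mitochondria while its fibres grow, and all of these steps serve that supply.

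The promoters of several members are shown first, to set the letters before genes that rose beside those before genes that did not pass the test. Sequences are the 250 bases before an annotated gene start, from RefSeq (GRCm38.p6), which holds 27 of the 32 members. Where a gene has more than 1 annotated start, as Hspd1, Tomm34 and Timm22 do, a match before any of them counts. Capitals are given for 4 of the 8 motifs searched on both strands: CCGGAAG, the core bound by GABP (also called NRF2, an activator of nuclear genes for mitochondrial proteins), GCGC and TGCGC with 1 base between them, the core bound by NRF1 (another such activator), TCAAGGTCA, the element of the estrogen-related receptors, and GAA, TTC and GAA with 2 bases between neighbours, the element of the heat shock factors. Capitals mark the letters matched by these. The first lines are stretches of 30 bases, strand given for each gene, from Timm8b (chr9:50603795-50603824 and chr9:50603871-50603900, plus strand), Timm23 (chr14:32201920-32201949, minus strand), Pam16 (chr16:4624947-4624976, minus strand) and Hspe1 (chr1:55088053-55088082, plus strand). The last of these lies between Hspe1 and Hspd1, which start head to head, and its heat shock and GABP letters overlap.
Timm8b, receptor element: tttcgagggcTCAAGGTCActctacaaccc
Timm8b, GABP core: ggcaacctgaagcgtgaaCCGGAAGgcagg
Timm23, GABP core: cgcgcttcccaCTTCCGGgccgcacacagc
Pam16, NRF1 core: acgcgtcgcgtccttGCGCACGCGCtctcc
Hspe1, heat shock element and GABP core: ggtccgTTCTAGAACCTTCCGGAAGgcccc

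The next lines give whole 250-base windows: Timm17a (chr1:135313738-135313987, minus strand) and Timm44 (chr8:4275906-4276155, minus strand), which rose and hold none of these 4 motifs, and Tomm22 (chr15:79670618-79670867, plus strand), which did not pass the test and holds a GABP core on each strand at overlapping positions.
Timm17a: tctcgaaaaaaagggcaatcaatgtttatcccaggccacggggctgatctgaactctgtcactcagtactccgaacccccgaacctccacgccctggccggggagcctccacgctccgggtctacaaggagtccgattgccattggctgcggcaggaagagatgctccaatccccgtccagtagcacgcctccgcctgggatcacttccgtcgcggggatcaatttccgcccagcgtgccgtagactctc
Timm44: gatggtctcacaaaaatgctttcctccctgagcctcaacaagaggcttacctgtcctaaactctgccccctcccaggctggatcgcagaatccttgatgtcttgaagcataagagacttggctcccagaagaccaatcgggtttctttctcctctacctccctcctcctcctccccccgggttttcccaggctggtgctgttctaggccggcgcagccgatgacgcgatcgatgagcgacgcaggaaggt
Tomm22: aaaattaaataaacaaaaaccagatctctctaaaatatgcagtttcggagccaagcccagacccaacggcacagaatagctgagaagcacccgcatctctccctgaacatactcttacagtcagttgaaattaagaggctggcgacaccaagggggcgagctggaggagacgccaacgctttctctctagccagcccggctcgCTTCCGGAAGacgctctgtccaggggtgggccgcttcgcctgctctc

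The GABP core was present upstream of 13 of the 27 members (48.1%), against 7.83% of 27025 genes with a promoter in the table and 15.8% of the 3336 genes brighter than the median member. It stood before 16 of 62 mitochondrial ribosomal protein genes (25.8%) and 3 of 29 complex I genes (10.3%). Among members it was present in 2 of 6 genes that rose and in 11 of 21 that did not pass the test. Hspd1 and Hspe1 are both counted for the same GABP letters between their starts. The NRF1 core was found in 3 members (Hspd1, Pam16 and Tomm20), or 11.1%, against 4.23% of all genes and 10.9% of the brighter ones. The heat shock element was found in Hspd1, Hspe1 and Timm9, against 0.514% of all genes and 0.51% of the brighter ones. Hspd1 and Hspe1 are again counted for the same stretch. The receptor element was found in Timm8b alone, against 0.422% of all genes and 0.21% of the brighter ones. Common promoter letters were searched as well: the E-box CACGTG was found in 5 of 27 members (18.5%, all genes 6.86%, brighter genes 10.4%). Among these members were 0 of the 6 that rose. The GC box GGGCGG was found in 15 (55.6%), above the 35.4% of all genes but below the 66.8% of the brighter ones. It stood before 4 of the 6 that rose and 11 of the other 21. The CCAAT box was found in 8 (29.6%, all genes 37.5%, brighter genes 38.3%), with 3 of the 6 that rose and 5 of the other 21. TATAAA was found in 1 (Timm13, all genes 14.3%, brighter genes 8.03%). Timm17a and Timm44 hold a CCAAT box, and Timm17a a GC box. A match of letters is a description and not a binding site, and the lack of one says only that these letters are not in the window.

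The arrays had medians of 3.29 to 3.36 over all probe sets, and replicates correlated at 0.953 to 0.964 at P2 and at 0.981 to 0.984 at P14 across genes, which are not independent replicates. A gene's spread among replicates had a median SD of 0.251 (P2), 0.203 (P7) and 0.163 (P14), so the P2 arrays were the least alike. Smell and taste receptor genes, used as a background, had a 95th percentile of 3.23, and 31 of the 32 members exceeded it in at least 1 age. Tomm20l lay below it at every age. Ckm, the creatine kinase of muscle fibres, was at 10.22, 10.72 and 11.21 at P2, P7 and P14, and Acta1, skeletal actin, at 11.94, 11.98 and 12.12, so the labelled tissue's defining transcripts were bright at each age.

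Over the whole span, P14 against P2, 7 of the 32 members rose (21.9%), none fell and 25 did not pass the test, with limma's moderated test and Benjamini-Hochberg adjustment over all 22180 genes at an adjusted p under 0.05. Of all genes 11.0% were called in that comparison, and 6.63% were called higher. In a fit of only the 12051 genes above the median of all genes in at least 1 age, 14.9% were called higher. There 10 of 31 members were called higher (32.3%). The 7 were Timm8b, Timm17a, Timm23, Timm44, Samm50, Pam16 and Timm21, with rises of 1.53-fold to 2.42-fold. The difference was positive for 29 members and negative for 3, with a median of 0.34 on the log2 scale, against 0.01 for all genes. Over the 12051 genes above the median of all genes in at least 1 age the median was 0.08. Every P14 array lay above every P2 array for 18 members (all genes 16.2%). Without P14 replicate 1 the count of members called was 4.

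**Figure D1:**
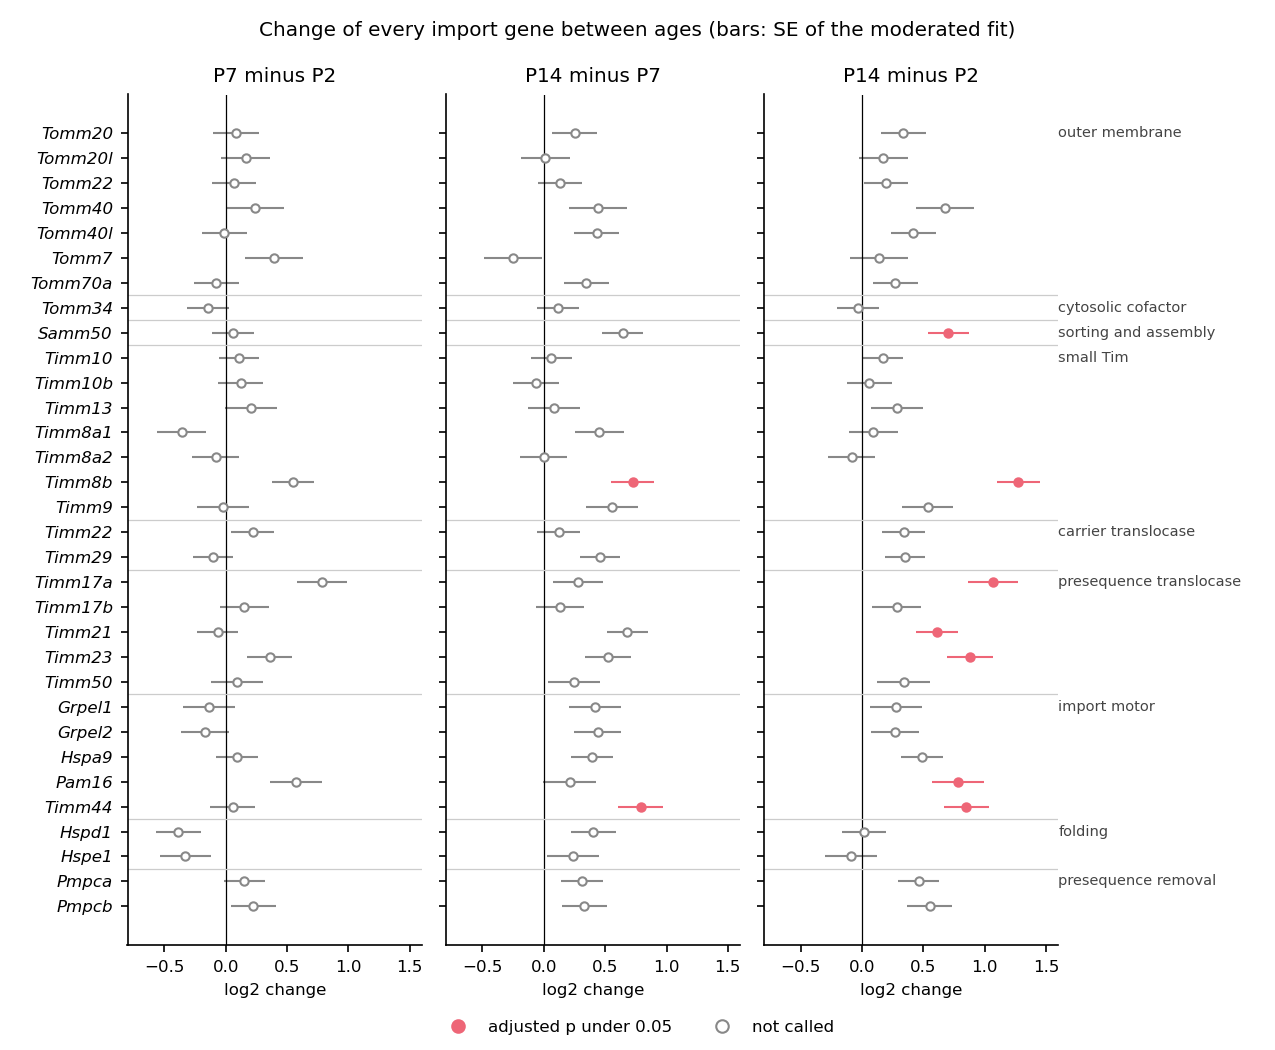
All 32 members, grouped by role, with the log2 change on the horizontal axis, bars for the SE of the fit and a panel for each pair of ages (P7 minus P2, P14 minus P7, P14 minus P2). In the panel of P14 minus P2 the 7 called members, filled, lie between 0.61 and 1.27, and 29 of 32 differences are above 0.

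The marker genes of other cells moved over the same span, and fewer cells of a type cannot be told apart from less RNA per cell in these bulk samples. Of all 22180 genes 1470 were called higher and 977 lower at P14 against P2. At an unadjusted p under 0.05 these numbers were 3046 and 2340. Of the 7 measured dividing cell markers 6 fell, and the log2 of their summed intensity was 6.87 to 7.02 at P14 against 7.86 to 8.62 at P2. Of the 12 muscle fibre markers 8 rose, at 14.8 on each P14 array against 13.8 to 14.0 at P2. Of the 6 satellite cell and myoblast markers 3 fell, at 7.83 to 8.10 at P14 against 8.03 to 8.33 at P2. In that list Myod1 went the other way, by 0.57 on the log2 scale (unadjusted p under 0.05, adjusted p = 0.0831, limma). Of the 8 neutrophil precursor markers 3 fell, at 5.63 to 5.84 at P14 against 5.84 to 7.85 at P2, where replicate 2 was the lowest. None of 6 endothelial markers was called by limma, with 4 at an unadjusted p under 0.05 (sums of 9.51 to 9.67 at P14 against 8.81 to 9.47 at P2), and of 7 adipocyte markers 2 fell (9.37 to 9.76 against 9.27 to 9.68). The adipocyte sum is mostly Fabp4, which averaged 9.28 at P2 and 9.37 at P14. The 2 that fell were Adipoq (4.71 at P2, 3.78 at P14) and Cidec (4.84 at P2, 3.78 at P14). Of 6 fibroblast markers 1 rose and 1 fell, 1 of 2 erythroid markers fell, and none of 6 macrophage or 4 Schwann cell markers was called by limma, with 1 and 0 at an unadjusted p under 0.05. Of all these markers only Camp, of neutrophil precursors, lay below the receptor background at every age. Others did so at some ages, such as S100a8 at P14 (2.07). The part of these cells in the results on import genes was not tested.

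Among the 7 outer membrane translocase genes none was called by limma, and 2 were higher at an unadjusted p under 0.05 (all genes 3046 of 22180). Differences were positive for 7 of 7, between 0.14 and 0.68 on the log2 scale. That group covers Tomm20, Tomm20l, Tomm22, Tomm40, Tomm40l, Tomm7 and Tomm70a, while Tomm34, a cytosolic cochaperone despite its symbol, was at -0.03. Tomm40, the channel itself, had 5.23, 4.47 and 5.27 at P2, 5.34, 4.80 and 5.56 at P7, and 5.58, 5.71 and 5.73 at P14. Its P14 arrays lay above the P2 arrays, with a difference of 0.68 (95% confidence interval 0.17 to 1.19, adjusted p = 0.0831, limma). Tomm40l, a paralogue of the channel, had 4.05, 4.05 and 4.46 at P2, 4.42, 3.93 and 4.16 at P7, and 4.62, 4.70 and 4.50 at P14. Here too the P14 arrays lay above the others, and the difference of P14 over P2 was 0.42 (interval 0.02 to 0.81, adjusted p = 0.177, limma).

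The receptor Tomm20 had 5.78, 5.67 and 6.08 at P2, 5.90, 6.06 and 5.82 at P7, and 6.34, 6.30 and 5.90 at P14. Its ages overlapped, since P14 replicate 3 fell within the P2 range, and the difference was 0.34 (interval -0.06 to 0.73, adjusted p = 0.287, limma). Tomm20l, its paralogue, was at background, with 2.73, 3.36 and 2.66 at P2, 3.07, 3.17 and 3.004 at P7, and 3.17, 3.20 and 2.90 at P14. The receptor Tomm70a differed by 0.27, the receptor Tomm22 by 0.20 and the small subunit Tomm7 by 0.14, with adjusted p of 0.398, 0.563 and 0.775 by limma.

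Samm50, the channel of the sorting and assembly complex, had 6.61, 6.54 and 6.90 at P2, 6.88, 6.75 and 6.60 at P7, and 7.44, 7.41 and 7.30 at P14. The P2 and P7 arrays shared 1 range and the P14 arrays lay above it. The rise of P14 over P2 was 0.70 ± 0.17 (SE), or 1.63-fold (adjusted p = 0.0141, limma), and the difference between P14 and P7 was 0.64 (adjusted p = 0.0602). Without P14 replicate 1 the adjusted p for P14 over P2 was 0.0632, and the call was lost without P14 replicate 2 as well.

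Of the 7 small Tim chaperones 1 rose (all genes 6.63%), and the differences ran from -0.08 to 1.27 with a median of 0.17. Timm8b, which forms chaperone complexes of the intermembrane space, showed the largest change of any member. It had 6.75, 7.06 and 7.04 at P2, 7.34, 7.76 and 7.39 at P7, and 8.22, 8.27 and 8.18 at P14, so no range overlapped another. The mean was 8.22 ± 0.05 at P14 against 6.95 ± 0.17 at P2 (SD, n = 3 each), a rise of 1.27 ± 0.17 (SE), or 2.42-fold (adjusted p = 0.000281, limma across all genes).

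Timm8a1, the mouse gene of the human deafness dystonia protein and the paralogue of Timm8b, gave 4.73, 4.79 and 4.42 at P2, 4.52, 3.91 and 4.43 at P7, and 4.95, 4.59 and 4.68 at P14. The ages overlapped, and the difference was 0.09 (interval -0.33 to 0.52, adjusted p = 0.826, limma). Its 3 probe sets disagreed: at P14 against P2 their mean gave 0.37 (adjusted p = 0.303) and the dimmest, which lies below the receptor background, gave 0.45 (adjusted p = 0.272). The second brightest moved the other way within both intervals, at 0.88 for P7 against P2 and -0.31 for P14 against P7, where the brightest was at -0.36 and 0.45. Timm8a2, another gene of that family, was at -0.08 (adjusted p = 0.840). Timm10, a carrier chaperone, had 4.17, 3.95 and 4.37 at P2, 4.37, 4.20 and 4.24 at P7, and 4.26, 4.42 and 4.32 at P14. Its relative Timm10b had 4.77, 5.31 and 5.36 at P2, 5.20, 5.20 and 5.42 at P7, and 5.20, 5.30 and 5.13 at P14. Both genes had overlapping ages, with differences of 0.17 and 0.06. Timm9, the partner of Timm10, differed by 0.54 (adjusted p = 0.126, limma), and Timm13 by 0.29 (adjusted p = 0.451).

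The carrier translocase of the inner membrane is represented by its channel Timm22 and the subunit Timm29. Neither was called by limma, and 1 was higher at an unadjusted p under 0.05 (all genes 3046 of 22180). Their differences were 0.34 (adjusted p = 0.250) and 0.35 (adjusted p = 0.202), and every P14 array lay above every P2 array for both.

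The presequence translocase had 3 of its 5 genes called, all higher (all genes 6.63%), with a median of 0.61 on the log2 scale. Timm23, its channel-forming core, had 7.70, 7.51 and 8.04 at P2, 8.01, 8.33 and 7.98 at P7, and 8.56, 8.76 and 8.56 at P14. The P14 arrays stood above all others while P2 and P7 overlapped, and the rise of P14 over P2 was 0.88 ± 0.18 (SE), or 1.84-fold (adjusted p = 0.00660, limma). Timm17a, a core subunit beside Timm23, had 4.88, 5.68 and 5.56 at P2, 6.05, 6.18 and 6.25 at P7, and 6.37, 6.43 and 6.52 at P14. No age overlapped another, P2 replicate 1 was the lowest array, and the rise of P14 over P2 was 1.07 ± 0.20 (SE), or 2.09-fold (adjusted p = 0.00363). Across the fits without 1 array that rise ran from 0.82 to 1.22 and the call was kept in all 9.

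Timm21, which links the presequence translocase to the outer membrane and to respiratory complexes, had 5.67, 6.05 and 5.97 at P2, 5.85, 5.91 and 5.72 at P7, and 6.34, 6.58 and 6.59 at P14. Only the P14 arrays stood apart, and the rise over P2 was 0.61 ± 0.17 (SE), or 1.53-fold (adjusted p = 0.0305, limma). This call was lost without P2 replicate 1 and without any single P14 array (adjusted p up to 0.120), and also under quantile normalization (0.0670) and cyclic loess (0.0792). Timm17b, the paralogue of Timm17a, had 4.37, 4.87 and 4.95 at P2, 5.07, 4.62 and 4.96 at P7, and 5.001, 5.19 and 4.86 at P14. Its ages overlapped, with a difference of 0.28 (interval -0.14 to 0.71, adjusted p = 0.426, limma). The receptor subunit Timm50 differed by 0.34 (adjusted p = 0.364).

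**Figure D2:**
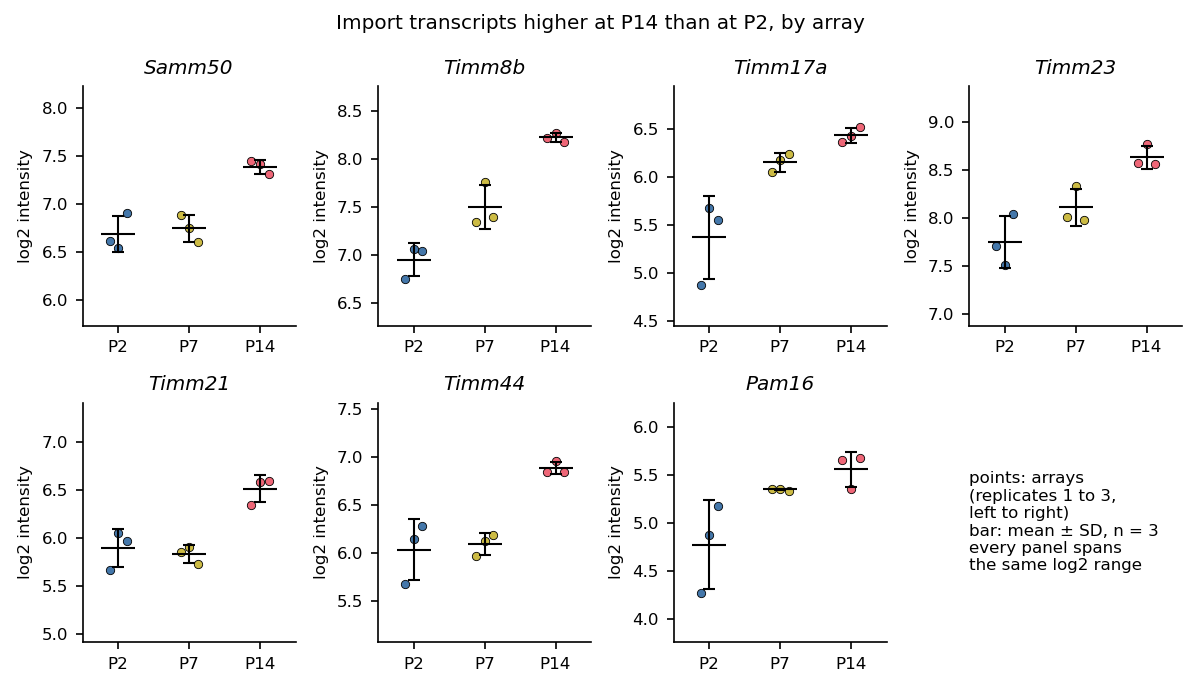
The log2 intensity of the 7 called members on each of the 9 arrays, with ages P2, P7 and P14 from left to right, points for single arrays and bars for the mean ± SD. Every P14 array lies above every P2 array for each gene, for example 8.18 to 8.27 at P14 against 6.75 to 7.06 at P2 for Timm8b.

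In the import motor 2 of 5 genes rose (all genes 6.63%), and the group's differences ran from 0.27 to 0.85 with a median of 0.49. Timm44, which tethers the motor to the translocase, had 5.68, 6.15 and 6.29 at P2, 5.97, 6.13 and 6.19 at P7, and 6.85, 6.96 and 6.85 at P14. P2 and P7 shared a range and P14 lay above it, and the rise of P14 over P2 was 0.85 ± 0.18 (SE), or 1.80-fold (adjusted p = 0.00792, limma). Pam16, a regulator of the motor's ATPase cycle, had 4.27, 4.88 and 5.18 at P2, 5.36, 5.35 and 5.34 at P7, and 5.65, 5.35 and 5.68 at P14. The P2 arrays were the lowest and P14 overlapped P7, and the rise of P14 over P2 was 0.78 ± 0.21 (SE), or 1.72-fold (adjusted p = 0.0282). Without P2 replicate 1 the rise of Pam16 was 0.53 and its adjusted p 0.111, and the call was also lost without P14 replicate 1 or 3.

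Hspa9, the chaperone that pulls precursors inward (mortalin), had 8.54, 8.24 and 8.17 at P2, 8.39, 8.31 and 8.53 at P7, and 8.66, 8.84 and 8.91 at P14. The P14 arrays lay above the others, with a difference of 0.49 over P2 (interval 0.12 to 0.85, adjusted p = 0.0833, limma). Grpel1 and Grpel2 are the nucleotide exchange factors of that chaperone. Grpel1 had 4.46, 4.28 and 4.27 at P2, 4.45, 4.48 and 3.67 at P7, and 4.48, 4.70 and 4.66 at P14, a difference of 0.28 between P14 and P2 (adjusted p = 0.472). Grpel2 had 4.40, 4.48 and 4.56 at P2, 4.06, 4.72 and 4.17 at P7, and 4.57, 4.91 and 4.78 at P14, a difference of 0.27 (adjusted p = 0.435). In both genes the P14 arrays lay above the P2 arrays by a small margin.

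The folding chamber of the matrix, Hspd1 and its lid Hspe1, gave no call by limma in any pair of ages. Hspd1 had 7.10, 6.51 and 6.72 at P2, 6.45, 6.53 and 6.20 at P7, and 6.79, 6.78 and 6.82 at P14, and Hspe1 had 6.45, 6.35 and 7.17 at P2, 6.48, 6.26 and 6.23 at P7, and 6.52, 6.50 and 6.68 at P14. The P14 arrays of both lay inside the P2 range, and the differences were 0.02 (interval -0.37 to 0.41, adjusted p = 0.970, limma) and -0.09 (interval -0.54 to 0.36, adjusted p = 0.844). The sign of both is unsettled, since Hspd1 was at -0.13 under quantile normalization and Hspe1 ran from -0.24 to 0.17 when single arrays were left out. A difference between this pair and the translocase genes was not tested.

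Presequence removal is carried out by Pmpca and Pmpcb, the subunits of the matrix processing peptidase, and neither passed the test. Pmpca had 5.69, 5.63 and 5.95 at P2, 5.97, 5.74 and 6.01 at P7, and 6.31, 6.11 and 6.23 at P14, a difference of 0.46 (interval 0.10 to 0.82, adjusted p = 0.0978, limma). Pmpcb had 5.83, 6.43 and 6.42 at P2, 6.45, 6.43 and 6.48 at P7, and 6.79, 6.76 and 6.79 at P14, a difference of 0.55 (interval 0.16 to 0.95, adjusted p = 0.0678). In both genes the P14 arrays lay above all others.

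The earlier interval, P7 against P2, asked whether the machinery had moved in the first postnatal week. No member was called by limma, against 0.329% of all genes, and 3 members (Pam16, Timm17a and Timm8b) had an unadjusted p under 0.05 and a positive difference (all genes 6.22%). These were also the 3 members whose P7 arrays all lay above the P2 arrays (all genes 7.30%). Timm17a differed by 0.78 (adjusted p = 0.115), Pam16 by 0.57 (adjusted p = 0.278) and Timm8b by 0.55 (adjusted p = 0.194). The other called genes ranged from -0.07 for Timm21 to 0.36 for Timm23. The median member difference was 0.09, with 20 positive and 12 negative. That median was 0.03 without P2 replicate 1, 0.03 without P2 replicate 2, 0.17 without P2 replicate 3 and 0.06 without P7 replicate 1.

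The later interval, P14 against P7, gave 2 called members, both higher: Timm44 and Timm8b (2.43% of all genes were called, 1.72% higher). Timm44 rose by 0.79 ± 0.18 (SE), or 1.73-fold (adjusted p = 0.0356, limma), and Timm8b rose by 0.73 on the log2 scale (adjusted p = 0.0420). Timm21 (0.68, adjusted p = 0.0504) and Samm50 (0.64, adjusted p = 0.0602) lay just outside the threshold. Differences were positive for 29 members and negative for 3, and 18 members had every P14 array above every P7 array (all genes 14.8%). The median member difference was 0.32, against 0.02 for all genes, and became 0.17 under quantile normalization and 0.18 under cyclic loess. Over genes above the median of all genes in at least 1 age the median difference was 0.09. Of the called genes in the whole table, 71.0% were higher at P14, and this share was 53.5% under quantile normalization and 53.0% under cyclic loess. No member was called under either of those scalings. The call of Timm44 was lost without any single P7 or P14 array, and that of Timm8b without P7 replicate 1 or 3 or any P14 array.

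Whether a gene moved more in the later interval than in the earlier one was tested as the difference between both changes. No member was called by limma (all genes 0.194%), 4 had an unadjusted p under 0.05 (Hspd1, Timm21, Timm44 and Timm8a1, against 8.12% of all genes), and the lowest adjusted p was 0.520. The value was positive for 23 of 32 members. That of Timm8a1 depends on the probe set, with 0.81 for the brightest and -1.19 for the second brightest. Both intervals share the P7 arrays. By array, the median over the 32 members was 4.75, 4.87 and 5.23 at P2, 5.27, 5.18 and 5.38 at P7, and 5.39, 5.33 and 5.41 at P14. P2 replicate 3 lay within the P7 range, apart from the other P2 arrays.

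Paralogues and partners can be set against each other within an array, where the change of their difference with age is read and the level of the difference is not. Over 8 such pairs an exact permutation test of the 9 arrays over the 3 ages gave none that passed after adjustment over the pairs (smallest possible p 0.0036). It asks for any difference among the 3 ages, without direction. Timm17a over Timm17b gave 0.64 ± 0.16 (P2), 1.27 ± 0.29 (P7) and 1.42 ± 0.22 (P14) (SD, n = 3 each). Its exact p over the 3 ages was 0.0214 (adjusted p = 0.1), and its change from P2 to P14 was 0.78. The difference of Timm8a1 over Timm8b changed by -1.18 from P2 to P14, with an exact p of 0.025 over the 3 ages (adjusted p = 0.1). Neither change from P2 to P14 was tested alone. For Tomm40 over Tomm40l, Timm10 over Timm10b, Grpel1 over Grpel2, Hspd1 over Hspe1 and Pmpca over Pmpcb the exact p ran from 0.504 to 0.993 (adjusted p = 0.993). Tomm20 over Tomm20l was counted in the adjustment but is not read, since Tomm20l lay below background at every age, and Timm8a1 stands here by its brightest probe set.

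**Figure D3:**
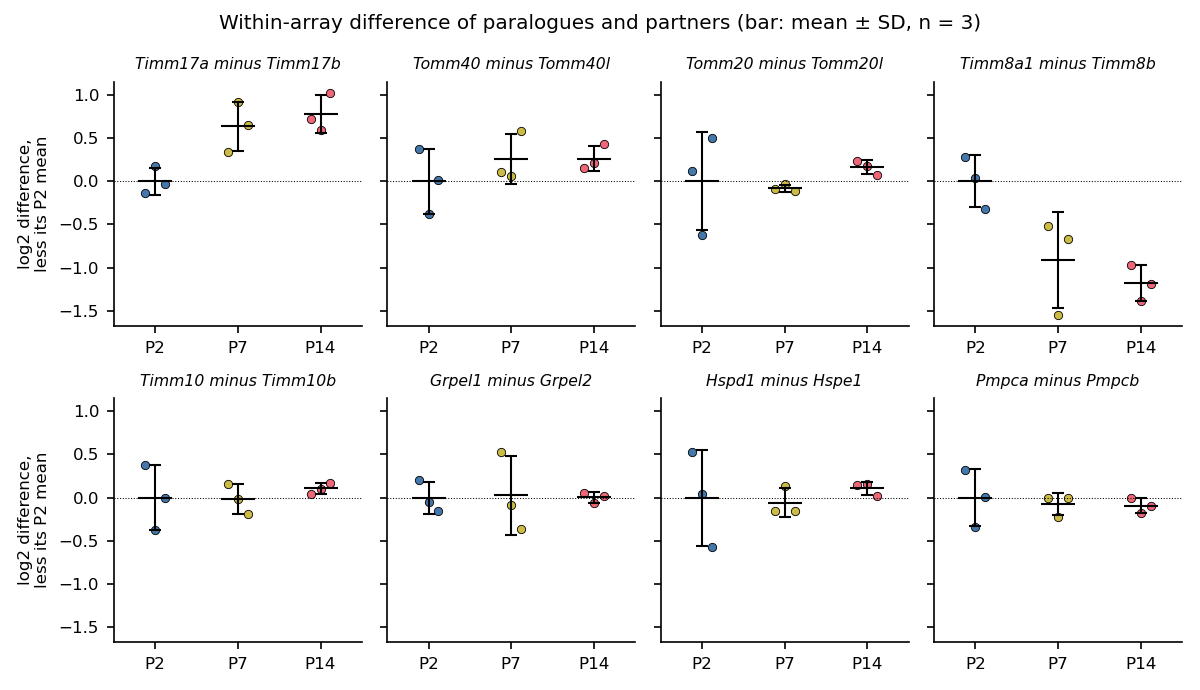
Within-array difference in log2 intensity between the genes of each of 8 pairs, at P2, P7 and P14 from left to right, with the pair's P2 mean subtracted, points for arrays and bars for the mean ± SD. Timm17a minus Timm17b lies 0.78 higher at P14 than at P2, and Timm8a1 minus Timm8b is at -1.18, while Tomm20l, in the panel of Tomm20 minus Tomm20l, is below background.

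Other genes that serve import and inner membrane upkeep were counted from fixed lists outside the rule. Of 15 measured import components and membrane insertion factors 6 rose at P14 against P2 and none fell (median 0.44). Of 15 proteases and chaperones 4 rose and none fell (median 0.32). Of 10 genes of the cristae organising complex and porins 5 rose and none fell (median 0.60). Of all genes 6.63% were called higher in that comparison. In the fit of only genes above the median of all genes in at least 1 age the share was 14.9%. Leaving out single arrays gave 2 to 6, 2 to 3 and 2 to 5 called genes in these lists. The lowest counts arose without P14 replicate 2 or 3 in the import list, without P7 replicate 1 or any single P14 array in the proteases, and without P2 replicate 1 or P14 replicate 1 or 3 in the cristae list. Quantile normalization and cyclic loess each left 2 calls among the proteases and 2 in the cristae list. At P14 against P7 none was called by limma in any of the 3 lists, with 4, 6 and 4 higher at an unadjusted p under 0.05 (all genes 9.58%).

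Mtch2, an insertase of the outer membrane, averaged 8.34 ± 0.16 at P14 and 7.38 ± 0.18 at P2 (SD, n = 3 each), a rise of 1.94-fold (adjusted p = 0.00345, limma). Cox18, an inner membrane insertase, averaged 5.36 ± 0.09 at P14 and 4.58 ± 0.25 at P2 and rose 1.72-fold (adjusted p = 0.00957). Gfer, which reoxidises the disulfide relay of the intermembrane space, averaged 4.72 ± 0.05 at P14 and 4.01 ± 0.12 at P2 and rose 1.64-fold (adjusted p = 0.0121). Immp1l, an inner membrane peptidase, rose 1.54-fold (adjusted p = 0.0272). The calls of Mtch2 and Cox18 were kept in all 9 fits without 1 array, while that of Gfer was lost without P14 replicate 2 or 3 and that of Immp1l without P2 replicate 1 or any P14 array. The call of Immp1l was also lost under quantile normalization (adjusted p = 0.0729) and cyclic loess (0.0861).

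Clpx, the unfoldase of a matrix protease, averaged 6.65 ± 0.07 at P14 and 5.92 ± 0.17 at P2 and rose 1.66-fold (adjusted p = 0.00996, limma). Oma1, a stress-activated inner membrane protease, averaged 5.39 ± 0.07 at P14 and 4.61 ± 0.25 at P2 and rose 1.72-fold (adjusted p = 0.00999). Both calls were kept in all 9 fits without 1 array. Afg3l2, a subunit of a quality control protease, rose 1.47-fold (adjusted p = 0.0433) and Parl, a rhomboid protease, 1.54-fold (adjusted p = 0.0474). The call of Afg3l2 was kept in 3 of the 9 fits and that of Parl in 1 (the fit without P2 replicate 1), and both were lost under quantile normalization (adjusted p = 0.133 and 0.0733).

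Apoo, a subunit of the cristae organising complex, averaged 4.08 ± 0.39 at P2, 5.12 ± 0.15 at P7 and 5.68 ± 0.05 at P14 (SD, n = 3 each), and its ages did not overlap. Its rise of P14 over P2 was 3.03-fold (adjusted p = 0.000123, limma), and at P7 against P2 it was the one called gene of the 3 lists (adjusted p = 0.0429), a call kept in 2 of the 9 fits without 1 array. Chchd3, another subunit, averaged 7.38 ± 0.06 at P14 and 6.53 ± 0.26 at P2 and rose 1.80-fold (adjusted p = 0.00639). Vdac3, a porin, averaged 11.31 ± 0.04 at P14 and 10.59 ± 0.35 at P2 and rose 1.65-fold (adjusted p = 0.0210), and Immt, the core of the complex, rose 1.57-fold (adjusted p = 0.0257). The calls of Vdac3 and Immt were lost without P2 replicate 1 or any P14 array, and under quantile normalization (adjusted p = 0.349 and 0.0692).

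Import genes were set beside 2 other groups of nuclear genes for mitochondrial proteins. At P14 against P2, 7 of 32 import genes rose (21.9%, all genes 6.63%), with a median difference of 0.34 and quartiles of 0.17 and 0.57. Of 71 mitochondrial ribosomal protein genes 21 rose (29.6%), with a median of 0.50 and 68 positive differences. Of 33 genes for subunits of respiratory complex I 25 rose (75.8%), with a median of 0.84 and 33 positive differences. At P14 against P7 the medians were 0.32 for import genes, 0.37 for ribosomal protein genes and 0.53 for complex I genes, and at P7 against P2 they were 0.09, 0.10 and 0.30. No test of the difference between these groups was run.

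**Figure D4:**
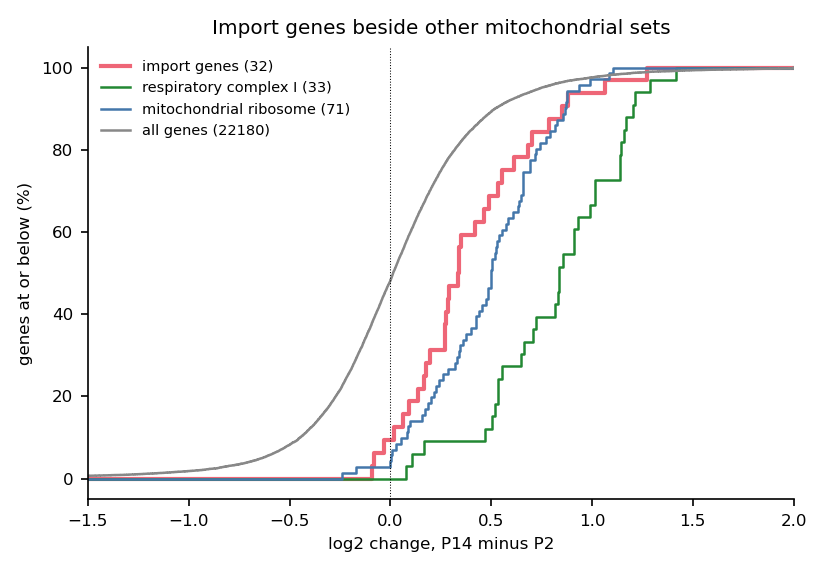
Cumulative share of genes (percent) at or below each log2 change of P14 against P2, for import genes, complex I genes, mitochondrial ribosomal protein genes and all genes. The medians are 0.34 for the 32 import genes, 0.50 for the 71 ribosomal protein genes, 0.84 for the 33 complex I genes and 0.01 for all 22180 genes.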

How the data were processed

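Probe set values from 9 arrays of hindlimb muscle were used. The authors deposited 1 log2 intensity per probe set and array, made with RMA and Partek per the submitters' processing notes. Their settings and versions, like the array platform, are unstated in these sources, and the log2 base is taken from RMA. No batch or scan date is given in the labels.

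Of 41345 probe sets, 23521 have 1 gene symbol, 1814 have several and 16010 are not listed in the annotation used. Probe sets with several symbols or none were left out, and the brightest probe set of each gene was kept, giving 22180 genes. No filter on dim genes was applied.

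Using limma 3.58.1 (R 4.3.3), models with 1 mean per age were fitted over all 9 arrays, and p-values were two-sided and adjusted over all genes. Such p-values reflect how these samples varied, partly perhaps for technical reasons, and precision is limited by how few arrays there are. The fits were tested on simulated data. Pair tests and counts were made in Python 3.11.15, and figures with matplotlib 3.10.9.

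Members called in any comparison and 8 listed pairs are given on every array, and from each list of other pathway genes up to 4 called genes with the smallest adjusted p are named. Members, lists and motifs were chosen with earlier results of these data known, and the permutation test of the pairs and the receptor background were chosen after values were seen. Alternatives covered scaling, the choice of probe set, a filter on dim genes, the moderation, the arrays fitted, a replicate block and leaving out each array.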

Additional observations from a re-analysis of the deposited data

How the results depend on the processing

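Of 1725 recomputed member values 55 changed sign, and none of these had been called; members called at P14 against P2 are among them for other pairs of ages. Calls were lost in 29 of them and gained in 18. For P14 against P2 the 7 members called became 4 to 8 when single arrays were left out and 5 to 10 otherwise. For P14 against P7 the 2 became 0 under quantile normalization, 0 under cyclic loess, 4 without dim genes, 4 with trended and robust moderation, 4 with the arrays of those ages alone, and 0 to 4 when single arrays were left out, and the cause was not tested. With the replicate number as a block 1 member was called for P14 against P7, where Timm8b had an adjusted p of 0.0519, and 7 for P14 against P2. Deviations of same-numbered arrays correlated at -0.0286 to 0.0565 across genes, which shows no sign of pairing by replicate number but cannot exclude it. At P14 against P2 the block left 2 proteases called, as did centring, both scalings and the arrays of those ages alone, against 4 as reported.

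Hspd1 changed sign at P14 against P2 when arrays were centred (-0.0102), under quantile normalization (-0.13) and cyclic loess (-0.13), and ran from -0.12 to 0.18 without single arrays. Timm10b was at -0.0168 and -0.0229 under these scalings and ran from -0.13 to 0.17. The ranges without single arrays also crossed 0 for Hspe1 (-0.24 to 0.17), Timm8a1 (-0.0193 to 0.17), Timm8a2 (-0.23 to 0.0235) and Tomm34 (-0.12 to 0.12), and at P7 against P2 for Timm44 (-0.12 to 0.18), Samm50 (-0.0129 to 0.17) and Timm21 (-0.18 to 0.0101). Hspa9 and Pmpcb passed at P14 against P2 without dim genes (adjusted p = 0.0443 and 0.0362) and with trended moderation, and Tomm40 without dim genes (0.0476). Pam16 and Timm21 did not pass with the P2 and P14 arrays alone (0.0567 and 0.0530). Without dim genes 14.9% of 12051 genes were called higher at P14 against P2, and 10 of 31 members (32.3%).

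Over all genes, calls at P7 against P2 numbered 73, and 113 under quantile normalization, 159 with trended moderation, 184 without dim genes, 12 with those ages alone and 11 to 206 without single arrays. At P14 against P7 they numbered 538, and 871 without dim genes, 1051 with those ages alone and 214 to 794 without single arrays. At P14 against P2 they numbered 2447, and 1373 to 2611 without single arrays. Of the calls at P14 against P2, 60.1% were higher, and 48.0% under cyclic loess. With 3 arrays an age the spread at P2 limits small differences.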

Other observations

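Some members share a start region with a gene on the opposite strand, with starts within 500 bases, and these neighbours were listed after values had been seen. Sdhd, a subunit of respiratory complex II that starts head to head with Timm8b, averaged 7.67 ± 0.12 at P14, against 6.96 ± 0.35 at P2 (SD, n = 3 each), a rise of 0.71 ± 0.21 (SE) on the log2 scale (adjusted p = 0.0461, limma). That value lies close to the threshold, and how the call of Sdhd depends on single arrays or scaling is not given here. Parg, the neighbour of Timm23, differed by 0.04 (adjusted p = 0.922), Pqbp1, that of Timm17b, by 0.35 (adjusted p = 0.324), and Entr1, that of Pmpca, by 0.16 (adjusted p = 0.621). The neighbour of Timm9, 2700049A03Rik, was at -0.34 (adjusted p = 0.234).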
